A study of Mus musculus with 12 samples.

Results

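The genes described here move zinc and iron across membranes or hold iron in store, together with the rows that lie opposite to 2 of them. There are 7 such rows of 55487 in the table of gene counts, chosen by name: the zinc exporter Slc30a1, the antisense row 1700034H15Rik opposite to it, the zinc and iron importer Slc39a14, the iron exporter Slc40a1, the ferritin light chain Ftl1, the unclassified row Gm10252 opposite to it, and the ferritin heavy chain Fth1. All 7 passed the filter on low counts that left 13181 rows for testing. A row is called opposite here when its exons and those of a gene on the other strand share 50 bases or more.

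The counts came from RNA sequencing of nasal tissue of C57BL/6 male mice, aged 6 weeks per the labels, which also give nasal epithelium as the cell type. Vehicle mice received PBS and were labelled day 10 (replicates 2, 4, 5 and 6). KDP20 mice, in a series whose title concerns diesel particles, were labelled day 5 (replicates 5, 6, 7 and 8) or day 10 (replicates 1, 2, 3 and 5). Vehicle was labelled day 10 alone, so in the day 5 comparison exposure and day differ together, and both KDP20 groups were compared with the same 4 vehicle libraries. The labels do not say that each library came from its own animal, and p-values then describe only how much these samples vary, which may be technical.

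Depth ran from 1658420 to 3227138 counts a library, and 3 counts, the floor used for detection, corresponded to 0.839 to 2.06 counts-per-million units (CPM) of the scaled library size. Intervals and floors cover counting error alone. Of 11 markers of nasal respiratory epithelium, 10 were tested in their own rows, and the secretory gene Scgb1a1 had at most 1 count. The strand setting of the counting is not given in the sources used here. Reads of a gene and of the row opposite to it can therefore not be told apart. For genes without an opposite row, such as Fth1, Slc40a1 and Slc39a14, it is likewise not known which strand the counts of their own rows came from, and their values are those of the row. In such bulk tissue, fewer cells of a type and less RNA per cell cannot be told apart either. The row CT010467.2 took 8.66% ± 1.55 of counts in vehicle, 10.9% ± 1.33 at day 5 and 19.4% ± 6.32 at day 10 (mean ± SD, n = 4), and at day 10 it was high in replicates 2, 3 and 5 (25.5%, 17.9% and 22.9%) but not in replicate 1 (11.2%).

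Zinc enters cells through transporters of the SLC39 family, which include Slc39a14, and leaves the cytoplasm through the SLC30 family, of which Slc30a1 is the plasma membrane exporter. The metal-sensing transcription factor Mtf1 binds metal response elements (MREs) when zinc is plentiful and raises Slc30a1 and the zinc-binding metallothioneins. Iron is held inside the ferritin shell of Fth1 and Ftl1 chains and leaves cells through Slc40a1, known as ferroportin. When iron is scarce, iron regulatory proteins bind a hairpin, the iron-responsive element, near the start of the ferritin and ferroportin mRNAs and hold back their translation, so much of the control of these genes does not pass through mRNA level.

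The sequences below are shown because they are the elements through which zinc and iron reach these genes, and because those of Ftl1 lie inside the territory of Gm10252. The 250 bases before the start of Slc30a1 in the RefSeq promoter table (GRCm38.p6, chr1:191906531-191906780, plus strand) hold 1 match to the MRE core and 1 to the core of the antioxidant response element (ARE), both in capitals. The MRE core was searched as TGCACNC or TGCGCNC and the ARE core as TGACNNNGC, on both strands.
Slc30a1 promoter: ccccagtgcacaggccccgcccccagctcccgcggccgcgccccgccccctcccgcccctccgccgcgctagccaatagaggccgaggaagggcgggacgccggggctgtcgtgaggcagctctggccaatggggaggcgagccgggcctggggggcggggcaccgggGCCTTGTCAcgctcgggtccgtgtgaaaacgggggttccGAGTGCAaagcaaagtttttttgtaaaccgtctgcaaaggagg
The MRE match reads GAGTGCA on the strand shown, 43 to 37 bases before the start, and the ARE match reads GCCTTGTCA, 82 to 74 bases before it. These 2 matches do not overlap. Among all 32851 promoter windows of this length, 21.4% held the MRE core in either form and 10.2% held the ARE core, so a single match is common. The window of Mt2, a metallothionein, held 3 MRE matches, and 1.26% of all windows held 3 or more.

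The matching window of Ftl1 (chr7:45459887-45460136, minus strand) held neither motif, and all 250 of its bases lie within the single exon of Gm10252.
Ftl1 promoter: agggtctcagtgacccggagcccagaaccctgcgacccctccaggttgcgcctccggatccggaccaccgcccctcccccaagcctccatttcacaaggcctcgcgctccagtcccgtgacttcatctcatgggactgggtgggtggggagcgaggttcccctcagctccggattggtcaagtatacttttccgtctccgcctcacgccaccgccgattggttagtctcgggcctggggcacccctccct
A search for the loop CAGTGN with a C at a fixed distance before it, in the annotated 5′ ends of the mRNAs, found the iron-responsive element of Fth1 (chr19:9982729-9982758, plus strand), Ftl1 (chr7:45459781-45459810, minus strand) and Slc40a1 (chr1:45925467-45925496, minus strand). The search did not check the pairing of bases in the hairpin. They are shown as 30 bases each on the strand of the mRNA, with the loop in capitals.
Fth1 element: ggtttcctgcttcaaCAGTGCttgaacgga
Ftl1 element: tgtgtcttgcttcaaCAGTGTttgaacgga
Slc40a1 element: ttccaacttcagctaCAGTGTtagctaagt
The Ftl1 element falls in the stretch that Ftl1 shares with Gm10252, chr7:45459530-45459884, while neither Fth1 nor Slc40a1 has an opposite row. Promoter entries were found for 4 of the 7 rows.

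In GENCODE M21 (GRCm38, the build of the deposited table) Slc30a1 (ENSMUSG00000037434, chr1:191906767-191913247, plus strand) has 2 exons, and 1700034H15Rik (ENSMUSG00000055833, chr1:191886130-191907527, minus strand) has 9 exon blocks and is annotated as antisense. The first exon of Slc30a1 and the first of 1700034H15Rik overlap by 468 bases, chr1:191907060-191907527, which is 8.92% of the exonic bases of Slc30a1 and 7.67% of those of 1700034H15Rik. Ftl1 (ENSMUSG00000050708, chr7:45457944-45459884, minus strand) has 4 exon blocks, and Gm10252 (ENSMUSG00000110350, chr7:45459469-45460300, plus strand) is a single exon of 832 bases of the class TEC, which awaits experimental evidence of a transcript. Their overlap of 355 bases is 26.5% of the exonic bases of Ftl1 and 42.7% of those of Gm10252. A predicted miRNA gene, Gm22133, overlaps 109 exonic bases of Ftl1 on the same strand. The remaining members are Slc39a14 (ENSMUSG00000022094, chr14:70303469-70351425, minus strand), Slc40a1 (ENSMUSG00000025993, chr1:45908068-45926523, minus strand) and Fth1 (ENSMUSG00000024661, chr19:9980598-9985098, plus strand).

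**Figure D1:**
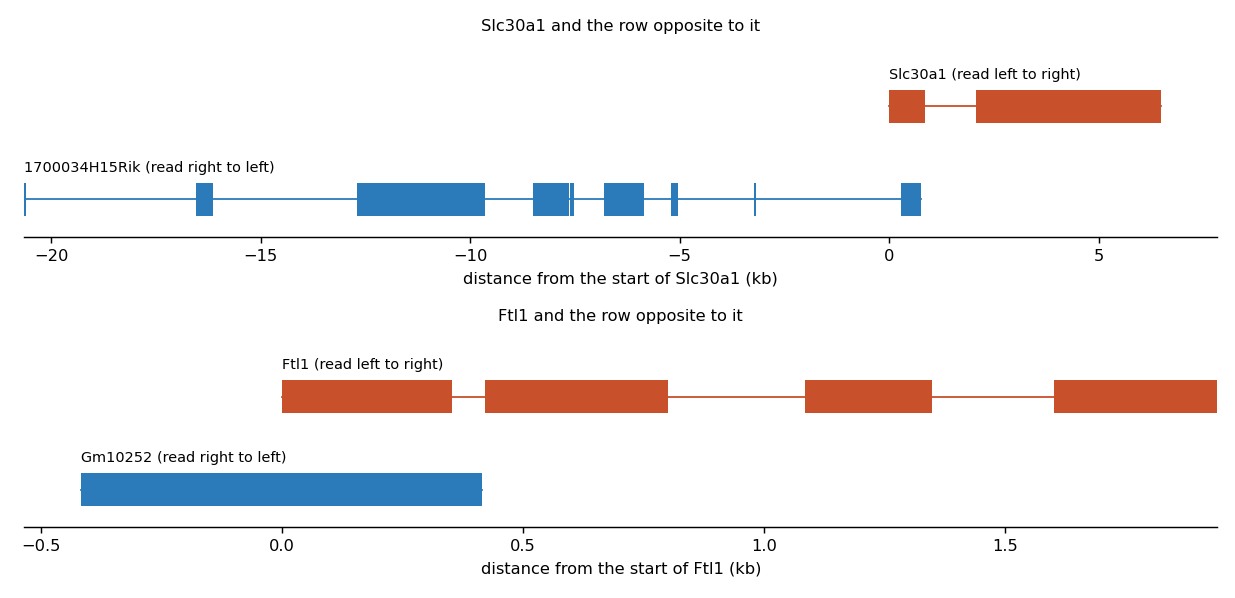
Exon maps of the 2 loci with an opposite row, drawn to scale; the x axis is the distance in kb from the annotated start of Slc30a1 (upper) or Ftl1 (lower), boxes are exons and lines introns. The rows share 468 bases at the Slc30a1 locus and 355 bases at the Ftl1 locus, in both cases at the 5′ end of the protein-coding gene.

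Levels of the 7 rows differed widely. Per kb of exon, the mean over the 12 libraries was 4790 CPM for Gm10252, 11.4 for 1700034H15Rik, 7.02 for Fth1, 6.65 for Ftl1, 2.75 for Slc30a1, 0.557 for Slc40a1 and 0.429 for Slc39a14. Gm10252 stood above 99.96% of all tested rows by mean CPM, and Slc39a14 above 5.82%. Both ferritin genes, which are abundant in most tissues, had 9 to 125 counts a library in their own rows. The row opposite Ftl1 had 4782 to 12939. The 5 rows of ferritin pseudogenes held 10 counts in all, and 2 of them none. Group means per kb kept Gm10252 highest and Slc39a14 or Slc40a1 lowest in each of the 3 groups.

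Slc30a1 and the row opposite to it were both higher at day 10 than in vehicle, and these were the 2 members called of 7, where 7.08% of all tested rows were called in this comparison (3.93% higher, 3.15% lower). Slc30a1 measured 10.8, 5.87, 12.2 and 6.79 CPM in vehicle replicates 2, 4, 5 and 6. At day 5 it measured 12.7, 13.9, 10.7 and 12.6 CPM in replicates 5 to 8. At day 10 it measured 12.3, 30.2, 19.5 and 25.1 CPM in replicates 1, 2, 3 and 5. Replicates 2, 3 and 5 of day 10 were above all other libraries, whereas day 10 replicate 1 lay just above the highest vehicle library, so that the groups did not overlap but nearly touched (9.98% of all tested rows had no overlap in this comparison). The group means were 8.91 ± 3.05, 12.5 ± 1.32 and 21.8 ± 7.67 CPM (SD, n = 4), from 15 to 44 counts a library.

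In the edgeR quasi-likelihood test with Benjamini-Hochberg adjustment over all tested rows, Slc30a1 rose between vehicle and day 10 with a log2 fold change of 1.30 (SE 0.31, adjusted p 0.0167). Day 5 lay between the other groups: its log2 fold change against vehicle was 0.51 (SE 0.32, edgeR adjusted p 0.458), and day 10 against day 5 gave 0.79 (SE 0.31, edgeR adjusted p 0.104). In the order vehicle, day 5, day 10, neither step between neighbours passed the test, while the step over both did.

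1700034H15Rik, a non-coding row with 1667 counts over the 12 libraries against 336 for Slc30a1, followed the same order of group means. It measured 44.0, 38.9, 59.9 and 53.4 CPM in vehicle, in the replicate order given above. At day 5 it measured 62.9, 97.2, 49.5 and 57.4 CPM, and at day 10 61.2, 119, 80.3 and 112 CPM. Every day 10 library was above every vehicle library, and day 5 overlapped both groups, with its replicate 6 exceeded by day 10 replicates 2 and 5 alone. The rise from vehicle to day 10 had a log2 fold change of 0.93 (SE 0.22, edgeR adjusted p 0.0155). Day 5 against vehicle gave 0.45 (SE 0.22, edgeR adjusted p 0.306) and day 10 against day 5 gave 0.48 (SE 0.22, edgeR adjusted p 0.171), neither of which passed.

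**Figure D2:**
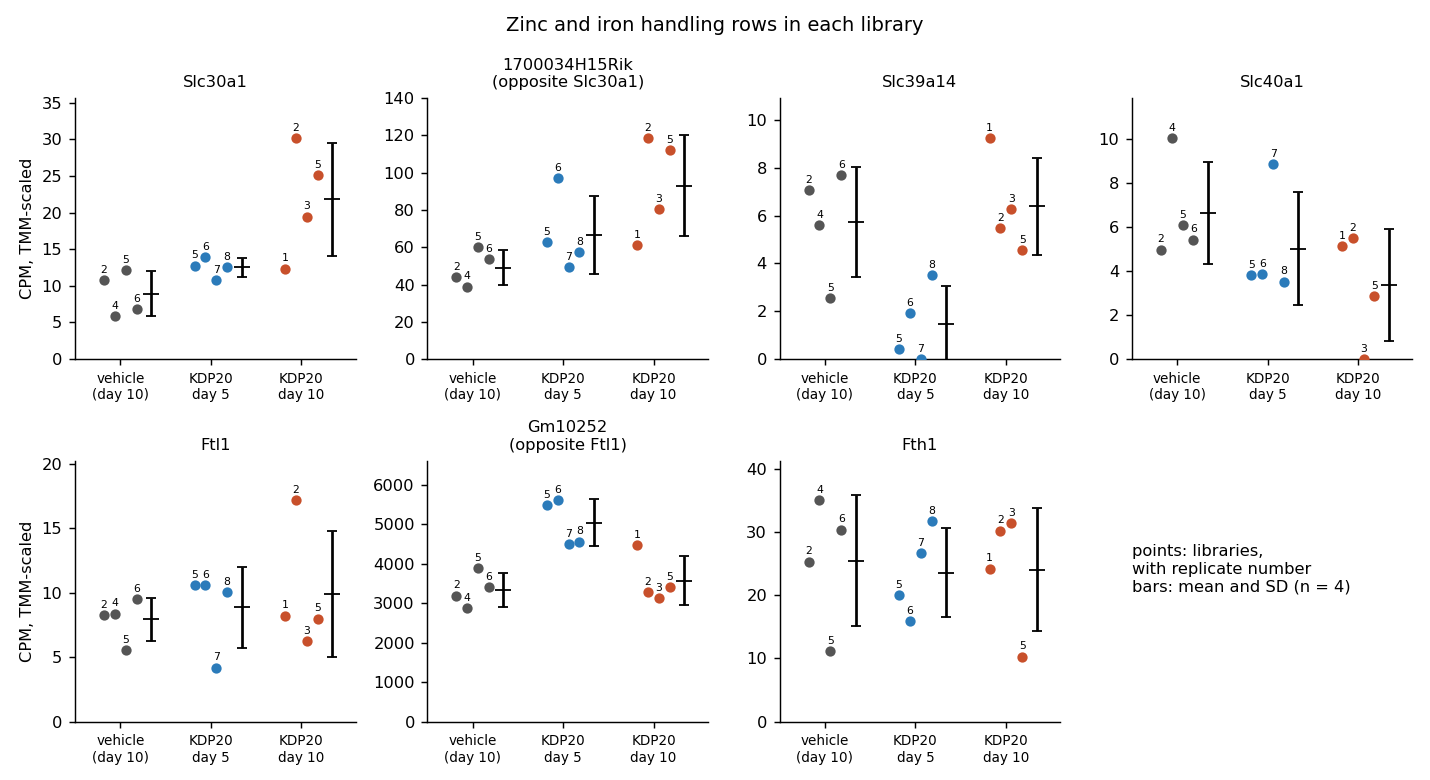
CPM of the TMM-scaled library size in each of the 12 libraries (y axis, from 0, 1 scale per panel) for the 7 rows, by group (x axis); points are libraries with their replicate number, bars the mean and SD of 4, cut at 0 for Slc39a14 at day 5. Slc30a1 and 1700034H15Rik are high in day 10 replicates 2, 3 and 5, Gm10252 is high in all 4 day 5 libraries, and Slc39a14 is low at day 5.

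The 3 libraries that set the day 10 means of Slc30a1 and 1700034H15Rik were those with the largest CT010467.2 shares. With that share as a covariate, the day 10 difference from vehicle was 0.29 for Slc30a1 and -0.02 for 1700034H15Rik (edgeR adjusted p 0.999 for each), and edgeR then called 0 rows in all (500 at an unadjusted p under 0.05). Without day 10 replicates 2, 3 and 5, which leaves replicate 1 alone, assumed to vary like the other groups, the differences were 0.50 and 0.33 (edgeR adjusted p 0.950 for each). With each library corrected for GC content both calls held (1.44, edgeR adjusted p 0.0185, and 0.92, edgeR adjusted p 0.0224). The share and the exposure cannot be told apart in these libraries.

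**Figure D3:**
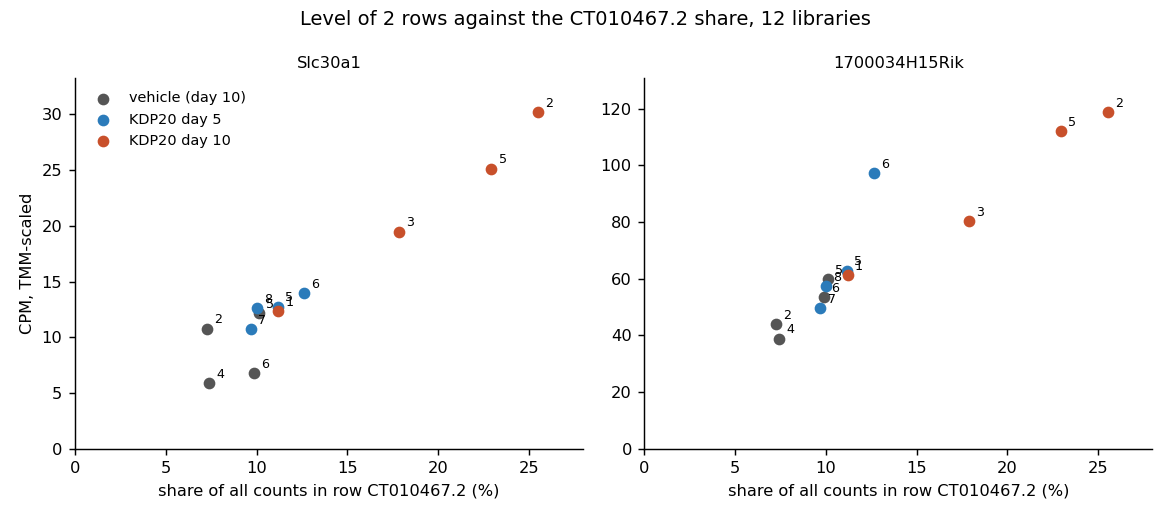
CPM of Slc30a1 (left) and 1700034H15Rik (right) on the y axis against the percent of all counts in the row CT010467.2 on the x axis, for the 12 libraries, coloured by group and marked with replicate numbers. The day 10 replicates 2, 3 and 5 lie apart at shares of 17.9% to 25.5%, and day 10 replicate 1, at 11.2%, lies among the day 5 libraries.

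Single libraries also decided these calls. Neither Slc30a1 nor 1700034H15Rik passed without day 10 replicate 2 (edgeR adjusted p 0.0794 and 0.0691), without day 10 replicate 5 (0.0737 and 0.0762) or without vehicle replicate 4 (0.0608 and 0.0549). Slc30a1 also missed the threshold without vehicle replicate 6 (0.0515), and 1700034H15Rik without vehicle replicate 2 (0.0530). Both differences stayed above 0 in every such fit, from 1.12 to 1.51 for Slc30a1 and from 0.81 to 1.09 for 1700034H15Rik.

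Some markers of other cell types differed at day 10 as well. The summed own rows of 6 skeletal muscle markers were above vehicle without overlap (24.5 to 35.5 CPM at day 10, 18.7 to 58.4 at day 5 and 17.8 to 21.8 in vehicle), with 1 of them tested and not called. Most of that sum came from Ckm, with 30 to 71 counts a library, while Myh4 had 0 to 28, Acta1 0 to 11 and the others at most 4. The sums of 7 neutrophil markers (195 to 272 CPM, against 147 to 202 in vehicle) and of 9 macrophage markers (225 to 283 against 191 to 229) overlapped vehicle. The neutrophil sum came almost wholly from Mmp9, which was called higher at day 10 against vehicle (0.61, SE 0.15, edgeR adjusted p 0.0189), while S100a8 and Ly6g were at 0 in all libraries. Gm11505, the row opposite the neutrophil marker Mpo, went the other way and was called lower (0.428 ± 0.289 against 11.8 ± 8.61 CPM, edgeR adjusted p 0.0103). In the macrophage list the defining genes Adgre1, C1qa, C1qb and C1qc had at most 4 counts. The 9 olfactory markers summed to 401 to 604 CPM at day 10 and 618 to 1092 in vehicle, and bone and osteoclast markers to 52.5 to 198 and 116 to 277. Among the olfactory markers, Obp2a was called lower (179 ± 103 against 466 ± 180 CPM, -1.38, SE 0.37, edgeR adjusted p 0.0270). It was the 1 called of the 8 tested, whose median log2 fold change was 0.01, where 7.08% of all tested rows were called. Of the 3 tested rows opposite olfactory markers, Mppe1, opposite Gnal, was called lower (2756 ± 612 against 3972 ± 485 CPM, -0.53, SE 0.15, edgeR adjusted p 0.0338). The median log2 fold change of these 3 rows was 0.18. The part of these markers in the Slc30a1 result was not tested.

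Both rows of the Slc30a1 locus rose at day 10, and the share of Slc30a1 in their summed counts was 15.3% ± 3.78 in vehicle, 16.3% ± 2.55 at day 5 and 18.7% ± 1.52 at day 10 (SD, n = 4). Day 10 exceeded vehicle by 3.47 points, which did not pass an exact two-sided permutation test (p 0.2, adjusted p 0.3 over 6 tests). With 4 libraries a group, a single comparison could not pass after this adjustment, even with groups that did not overlap. The test therefore cannot show that the share stayed the same. With both rows summed into 1 before the fit, the locus rose by 0.99 at day 10 against vehicle (edgeR adjusted p 0.0102). Across the 12 libraries, log2 CPM of Slc30a1 and 1700034H15Rik had a Pearson r of 0.89 (permutation p 0.00015, adjusted p 0.0003 over 2 loci) and a Spearman rho of 0.94 (p 2e-05, adjusted p 4e-05). Without the 2 libraries farthest from the median of Slc30a1, r was 0.79 (permutation p 0.00607, adjusted p 0.0121), and with group means removed it was 0.74 (permutation p 0.00586, adjusted p 0.0117). Since day 10 replicates 2, 3 and 5 lie apart, r was also taken over the other 9 libraries, where it was 0.69 and did not pass (permutation p 0.0426, adjusted p 0.0852), with a rho of 0.88 that did (permutation p 0.00308, adjusted p 0.00616).

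Slc39a14, the importer of zinc and of iron not bound to transferrin, was low at day 5. It had 17, 20, 5 and 17 counts in vehicle, 1, 4, 0 and 7 at day 5, and 18, 8, 10 and 8 at day 10. In CPM these were 7.05, 5.59, 2.54 and 7.70 in vehicle, 0.425, 1.92, 0 and 3.53 at day 5, and 9.26, 5.49, 6.28 and 4.57 at day 10. Every day 10 library was above every day 5 library, while vehicle overlapped both groups, its replicate 5 being the one library within the day 5 range. The count of 0 in day 5 replicate 7 allows up to 1.40 CPM.

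Day 10 exceeded day 5 for Slc39a14 with a log2 fold change of 2.13 (SE 0.64, edgeR adjusted p 0.0346). It was 1 of 2 members called in this comparison, where 10.1% of all tested rows were called (4.66% higher, 5.49% lower). Day 5 against vehicle gave -1.97 (SE 0.63), the largest difference of any member from vehicle, which missed the threshold (edgeR adjusted p 0.116). Day 10 against vehicle gave 0.16 (SE 0.53, edgeR adjusted p 0.891). The call rests on few counts: it was lost without any 1 of day 5 replicates 5, 6 or 7 or any day 10 library (edgeR adjusted p 0.0567 to 0.117), and a filter of 10 CPM in 4 libraries left the gene untested.

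Slc40a1, through which cells export iron, was not called in any comparison. It measured 4.98, 10.1, 6.09 and 5.44 CPM in vehicle, 3.82, 3.85, 8.88 and 3.53 at day 5, and 5.14, 5.49, 0 and 2.86 at day 10. The group means fell in that order (6.64 ± 2.33, 5.02 ± 2.58 and 3.37 ± 2.53 CPM), but all 3 groups overlapped and no neighbours in the order differed beyond their spread. The log2 fold change of day 10 against vehicle was -0.98 (SE 0.56, edgeR adjusted p 0.296), of day 5 against vehicle -0.42 (SE 0.52, 0.755) and of day 10 against day 5 -0.56 (SE 0.58, 0.605). At 0 to 36 counts a library, a difference of this size was not resolved. Ferroportin is prominent in macrophages and in cells of the erythroid line, and the summed erythroid markers ran from 164 to 197 CPM in vehicle, 159 to 191 at day 5 and 143 to 193 at day 10, with Alas2 as the main contributor. Of 3 tested erythroid markers, Klf1, an erythroid transcription factor, was called higher at day 10 against vehicle (24.7 ± 9.88 against 12.4 ± 2.33 CPM, 0.97, SE 0.29, edgeR adjusted p 0.0441). The part of these markers in the Slc40a1 values was not tested.

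Gm10252, the row opposite the ferritin light chain, was higher at day 5 than in both other groups. It measured 3192, 2871, 3891 and 3405 CPM in vehicle, 5495, 5604, 4504 and 4561 at day 5, and 4480, 3283, 3130 and 3410 at day 10. All day 5 libraries were above all others, and day 10 replicate 1 was the library nearest to them. The group means were 3340 ± 428, 5041 ± 589 and 3576 ± 614 CPM (SD, n = 4). At day 5 against vehicle, all tested rows opposite another had a median log2 fold change of 0.12, where all tested rows had -0.03. The 3 tested rows opposite olfactory markers had a median of -0.10 there. Opposite macrophage and erythroid markers 1 row each was tested, with values of 0.08 and 0.06. Rows opposite some other markers moved with Gm10252. The 3 rows opposite nasal respiratory markers had a median log2 fold change of 0.62 at day 5 against vehicle and -0.57 between the days. Gm44323, opposite Krt5, was called higher at day 5 (0.94, SE 0.22, edgeR adjusted p 0.0469), though the groups overlapped. Gm15883, opposite Cyp2f2, was called lower at day 10 against day 5 (-0.45, SE 0.13, edgeR adjusted p 0.0244). The summed level of these 3 rows was 21531 to 28065 CPM in vehicle, 23653 to 30823 at day 5 and 18384 to 22861 at day 10. Gm48752, opposite the muscle gene Mybpc1, was called higher at day 5 (2.19, SE 0.47, edgeR adjusted p 0.0344) and lower at day 10 against day 5 (-1.70, SE 0.47, edgeR adjusted p 0.0222). The part of these rows in the Gm10252 result was not tested.

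The rise at day 5 against vehicle had a log2 fold change of 0.59 (SE 0.13, edgeR adjusted p 0.0384). Gm10252 was the single member called there, where 0.660% of all tested rows were called (0.410% higher, 0.250% lower). Day 10 was lower than day 5 by a log2 fold change of -0.50 (SE 0.13, edgeR adjusted p 0.0212), and day 10 differed from vehicle by 0.10 (SE 0.13, edgeR adjusted p 0.706). Between day 5 and vehicle 11.7% of tested rows had groups that did not overlap, and between day 10 and day 5 12.5% did.

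The day 5 call of Gm10252 held when the CT010467.2 share was a covariate (0.63, edgeR adjusted p 0.0130) but missed the threshold after GC correction (0.54, edgeR adjusted p 0.0671). It was also lost without any 1 of vehicle replicates 2, 4 or 6, day 5 replicates 5, 6 or 8, or day 10 replicate 3, with values of 0.54 to 0.64 (edgeR adjusted p 0.0508 to 0.171). The day 10 fall from day 5 was lost with the covariate (-0.37, edgeR adjusted p 0.461) and without day 10 replicates 2, 3 and 5 (-0.17, edgeR adjusted p 0.859), and also without any 1 of those libraries or of day 5 replicates 5 or 6 (edgeR adjusted p 0.0660 to 0.0861).

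Ftl1, in its own row, stayed near 10 CPM or below in all but 1 library. It measured 8.30, 8.39, 5.58 and 9.51 CPM in vehicle, 10.6, 10.6, 4.20 and 10.1 at day 5, and 8.23, 17.2, 6.28 and 8.00 at day 10. The groups overlapped throughout, with day 10 replicate 2 the highest library and day 5 replicate 7 the lowest. The log2 fold changes were 0.15 at day 5 against vehicle (SE 0.37, edgeR adjusted p 0.893), 0.29 at day 10 against vehicle (SE 0.38, 0.692) and 0.14 at day 10 against day 5 (SE 0.38, 0.868).

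Ftl1 held a minute part of the counts at its locus: 0.243% ± 0.0679 of the sum with Gm10252 in vehicle, 0.174% ± 0.0555 at day 5 and 0.284% ± 0.159 at day 10. None of the 3 differences passed the exact permutation test (the smallest p was 0.171, adjusted p 0.3). The limit given for this test at the Slc30a1 locus holds here too. Across the 12 libraries Ftl1 and Gm10252 had a Pearson r of 0.03 (permutation p 0.929, adjusted p 0.929) and a Spearman rho of 0.21 (p 0.513, adjusted p 0.513). The r was 0.55 without the 2 libraries farthest from the median of Ftl1 (permutation p 0.105). So the row opposite Ftl1 was called at day 5, and Ftl1, with 9 to 30 counts, was not.

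Fth1, the ferritin chain that oxidises iron for storage, had no opposite row and was called in no comparison. It measured 25.3, 35.0, 11.2 and 30.3 CPM in vehicle, 20.0, 15.9, 26.6 and 31.7 at day 5, and 24.2, 30.2, 31.4 and 10.3 at day 10. Each group spanned nearly the same range, with means of 25.4 ± 10.3, 23.5 ± 7.03 and 24.0 ± 9.68 CPM. The log2 fold changes were -0.14 (SE 0.31), -0.11 (SE 0.32) and 0.02 (SE 0.33) for day 5 and day 10, each against vehicle, and between the days, with edgeR adjusted p of 0.881, 0.868 and 0.977.

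**Figure D4:**
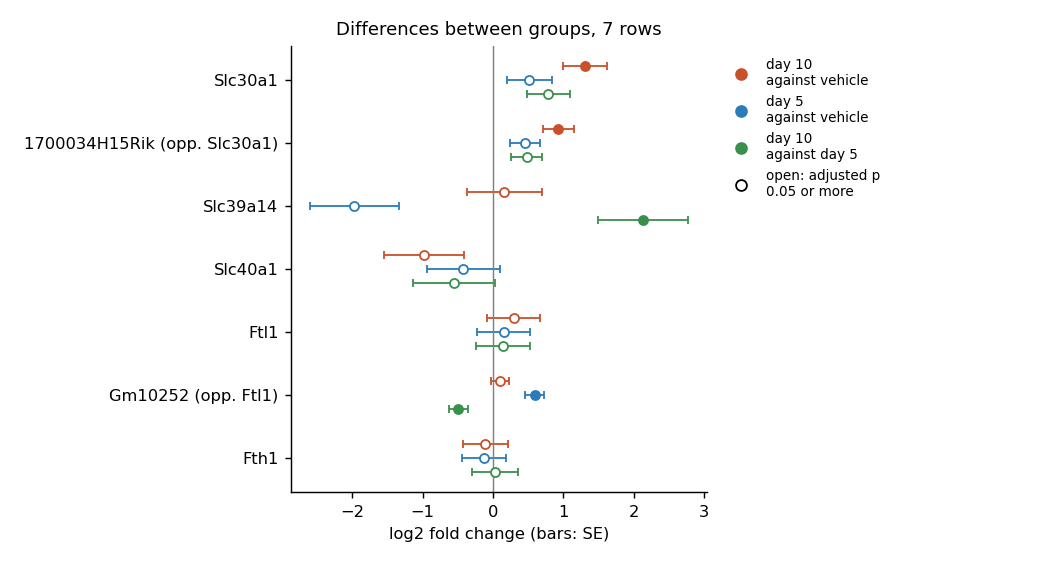
Log2 fold change (x axis, bars SE) of the 7 rows (y axis) in the 3 comparisons; filled points passed an edgeR adjusted p of 0.05. Slc30a1 and 1700034H15Rik are filled for day 10 against vehicle, Gm10252 for both comparisons with day 5, and Slc39a14 for day 10 against day 5.

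Other genes of metal handling were read from 5 lists with 78 genes in all, members included, of which 39 had enough counts to test in their own rows. By own rows, 2 were called higher and 1 lower at day 10 against vehicle, 0 at day 5 against vehicle, and 4 higher and 1 lower at day 10 against day 5. Of all tested rows, 7.08%, 0.660% and 10.1% were called in these comparisons, so these counts are near the background and say nothing particular about the lists. At day 5 against vehicle, DESeq2 and limma-voom also called 0 of these own rows, and 3 had an unadjusted edgeR p under 0.05. Of 23 rows opposite listed genes, 17 were tested. They gave 2 higher and 2 lower, 2 higher, and 3 lower in those comparisons, beside the same 7.08%, 0.660% and 10.1%. Their calls include the members 1700034H15Rik and Gm10252, which were chosen with earlier results known, so they carry no test of the lists. Many textbook genes of iron handling were too low to test, such as the transferrin receptor Tfrc and the haem oxygenase Hmox1, each with at most 3 counts a library, and the hepcidin gene Hamp, with at most 2.

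In the list of zinc transport and buffering, 15 of 29 genes were tested by own rows. The calls were the members Slc30a1 (1 higher at day 10 against vehicle) and Slc39a14 (1 higher at day 10 against day 5). Median log2 fold changes were 0.15 at day 10 and 0.17 at day 5 against vehicle and 0.02 between the days, where all tested rows had -0.01, -0.03 and 0.01. Mtf1, the zinc sensor itself, measured 83.5 ± 10.3, 101 ± 11.7 and 92.4 ± 16.3 CPM in vehicle, day 5 and day 10, and was not called. Mtf1 lies opposite 1110065P20Rik. Slc30a7, which carries zinc into the Golgi, measured 55.4 ± 4.16, 56.3 ± 6.62 and 47.3 ± 9.27 CPM and was not called either.

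Of 8 tested rows opposite zinc genes, 2 were called higher and 1 lower at day 10 against vehicle, 0 at day 5 and 1 lower between the days, beside backgrounds of 7.08%, 0.660% and 10.1%. Psmc3, a proteasome subunit opposite the zinc transporter Slc39a13, rose from 53.8 ± 2.95 to 79.6 ± 10.2 CPM at day 10 (log2 fold change 0.57, SE 0.16, edgeR adjusted p 0.0347), and all 4 day 10 libraries were above all vehicle libraries. The other row called higher was 1700034H15Rik. Gm6649, opposite Slc30a7, fell at day 10 against vehicle (-0.74, SE 0.22, edgeR adjusted p 0.0412) and against day 5 (-0.99, SE 0.22, 0.00593). Its day 10 values were 200, 77.6, 94.8 and 77.1 CPM, so that replicate 1 alone lay within the vehicle range of 158 to 215. Gm45774, opposite the metallothionein Mt2, was the most abundant of these rows. It measured 1578, 1261, 2178 and 1767 CPM in vehicle, 3104, 2043, 2642 and 2563 at day 5 and 3557, 1031, 1009 and 1141 at day 10, again with day 10 replicate 1 apart from the other day 10 libraries. It was called in no comparison (log2 fold change 0.61 at day 5 against vehicle, SE 0.28, edgeR adjusted p 0.274).

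Among 8 tested genes of iron uptake and export, 1 was called lower at day 10 against vehicle and 1 higher at day 10 against day 5, where 7.08% and 10.1% of all tested rows were called. Steap2, a metalloreductase that readies iron and copper for import, fell from 782 ± 117 to 522 ± 130 CPM (a log2 difference of -0.58, SE 0.15, edgeR adjusted p 0.0223). Its values at day 10 were 713, 489, 426 and 460 CPM, and replicate 1 overlapped the vehicle range of 672 to 935. Trf, the plasma iron carrier transferrin, rose from 25.9 ± 7.33 at day 5 to 40.9 ± 5.26 at day 10 (0.66, SE 0.21, edgeR adjusted p 0.0490), with vehicle at 37.2 ± 6.33. The list's medians were -0.30 and -0.12 against vehicle at day 10 and day 5, and -0.23 between the days. Ltf, the iron-binding lactoferrin of secretions, measured 149 ± 84.0, 158 ± 55.1 and 105 ± 48.5 CPM in vehicle, day 5 and day 10 and was not called.

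Of 2 tested rows opposite this list, Hps3, a lysosome-related gene opposite the ferroxidase Cp, fell at day 10 against vehicle (118 ± 57.9 against 210 ± 21.2 CPM, a log2 difference of -0.82, SE 0.22, edgeR adjusted p 0.0244). Its replicate 1 at day 10 measured 203 CPM, within the vehicle range of 185 to 230, and the other 3 measured 74.1, 92.9 and 102. Gm5475, opposite the iron importer Slc11a2, stayed between 119 and 130 CPM in group mean and was not called.

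In the list of iron storage and its turnover, 5 of 6 genes were tested and 0 were called by own rows in any comparison, with medians of 0.01 and 0.15 against vehicle and 0.02 between the days. DESeq2 and limma-voom called 0 as well, and Pcbp1, an iron chaperone named for this p, was the single gene with an unadjusted edgeR p under 0.05 (0.0463, at day 10 against vehicle). Pcbp2, a related chaperone, measured 284 ± 36.4, 290 ± 23.9 and 286 ± 19.0 CPM in vehicle, day 5 and day 10, and Ncoa4, which hands ferritin to lysosomes, 29.4 ± 3.64, 34.0 ± 4.93 and 27.6 ± 14.6. All 3 opposite rows were tested, and 1 was called higher at day 5 against vehicle and 2 lower at day 10 against day 5. Of all tested rows, 0.660% and 10.1% were called in these comparisons. Map3k12, a kinase gene opposite Pcbp2, fell between day 5 and day 10 (1828 ± 29.8 to 1377 ± 229 CPM, a log2 difference of -0.41, SE 0.12, edgeR adjusted p 0.0368) beside Gm10252, without overlap of the groups.

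Iron sensing and hepcidin control gave 1 gene called higher of 5 tested at day 10 against vehicle, and 1 higher and 1 lower at day 10 against day 5, against backgrounds of 7.08% and 10.1%. Erfe, the hormone erythroferrone that restrains hepcidin, measured 77.6, 82.2, 78.7 and 73.8 CPM in vehicle, 63.7, 69.7, 73.3 and 72.0 at day 5 and 96.7, 139, 86.6 and 118 at day 10. All day 10 libraries were above both other groups, with log2 fold changes of 0.49 against vehicle (SE 0.15, edgeR adjusted p 0.0495) and 0.66 against day 5 (SE 0.15, 0.00841). The call against vehicle was lost with upper-quartile scaling (edgeR adjusted p 0.0556), with no filter (0.0872), with the 8 libraries compared alone (0.0958) and in limma-voom (adjusted p 0.0558). Erfe lies opposite Ilkap. The row of Fbxl5, a ubiquitin ligase subunit that senses iron, fell from 23.4 ± 5.54 at day 5 to 10.3 ± 5.91 at day 10 (-1.15, SE 0.33, edgeR adjusted p 0.0280). Fbxl5 lies opposite Bst1. Tmprss6, a protease that limits hepcidin, was not called (25.5 ± 6.06, 25.5 ± 4.54 and 35.0 ± 7.94 CPM in vehicle, day 5 and day 10). The medians were 0.44 and -0.08 against vehicle and 0.45 between the days.

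The row Gm44662, opposite Hamp2 and Usf2, rose at day 5 against vehicle (143 ± 15.7 against 93.1 ± 8.46 CPM, a log2 difference of 0.62, SE 0.13, edgeR adjusted p 0.0344), where all day 5 libraries were above all vehicle libraries. Txndc5, opposite the hepcidin inducer Bmp6, was not called (71.1 ± 10.8, 86.8 ± 15.6 and 76.5 ± 9.80 CPM). Hamp2 itself had at most 2 counts a library.

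In haem handling, 6 of 15 genes were tested. The 1 called was higher at day 10 against day 5, where 10.1% of all tested rows were called. The list's medians were -0.08 and -0.11 against vehicle and 0.10 between the days. Slc48a1, which moves haem out of lysosomes, measured 81.2 ± 13.3 CPM at day 10, 55.5 ± 5.30 at day 5 and 58.8 ± 8.71 in vehicle, and its log2 fold change between the days was 0.55 (SE 0.17, edgeR adjusted p 0.0357). Hmox2, the constitutive haem oxygenase, measured 224 ± 18.8, 251 ± 18.9 and 198 ± 23.4 CPM in vehicle, day 5 and day 10. Cdip1, opposite Hmox2, measured 554 ± 72.4, 637 ± 21.4 and 505 ± 54.4, and A230020J21Rik, opposite the haem exporter Flvcr1, 80.8 ± 18.9, 106 ± 7.94 and 91.9 ± 9.97. None of these 3 was called in any comparison.

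**Figure D5:**
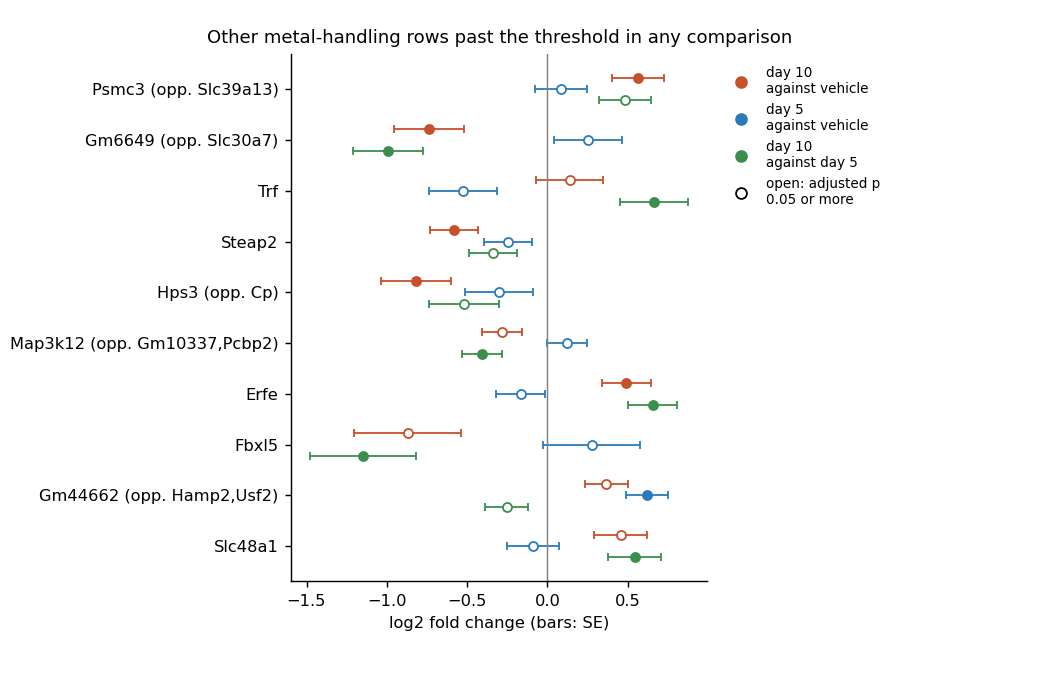
Log2 fold change (x axis, bars SE) of the 10 rows outside the members that passed an edgeR adjusted p of 0.05 in any of the 3 comparisons, from the 5 metal-handling lists (y axis, with the gene opposite where the row was listed through it); filled points passed. Filled points for day 10 against vehicle are Psmc3, Gm6649, Steap2, Hps3 and Erfe, and the single one for day 5 against vehicle is Gm44662.

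Most of these list calls also depended on the settings and on single libraries. When the CT010467.2 share was a covariate, none of the list calls outside the members passed at day 10 against vehicle or against day 5 (edgeR adjusted p from 0.322), in fits that called 0 and 2 rows in all. The differences from vehicle were then 0.65 for Psmc3, -0.01 for Gm6649, -0.27 for Steap2, -0.05 for Hps3 and 0.14 for Erfe, and that of Trf from day 5 was 0.85, so those of Psmc3 and Trf were no smaller. The call of Gm44662 at day 5 passed (0.0151). GC correction ended all 5 list calls outside the members at day 10 against vehicle: Psmc3 gave 0.38 (edgeR adjusted p 0.201), Gm6649 -0.60 (0.0985), Steap2 -0.26 (0.287), Hps3 -0.63 (0.0740) and Erfe 0.25 (0.362). Between the days it ended those of Erfe (0.45, edgeR adjusted p 0.0515), Trf (0.60, 0.0785), Fbxl5 (-0.94, 0.0647) and Slc48a1 (0.36, 0.170), while those of Gm6649 and Map3k12 held, as did Gm44662 at day 5. Without day 10 replicates 2, 3 and 5, the day 10 differences of Gm6649, Hps3 and Steap2 from vehicle were 0.09, -0.04 and -0.13, and those of Psmc3 and Erfe 0.65 and 0.31, none of which passed. Leaving out 1 library at a time, Erfe against vehicle held in 2 of 12 fits, Gm6649 against vehicle in 2, Psmc3 in 6, Hps3 in 6, Steap2 in 7, Trf in 1, Map3k12 in 4, Slc48a1 in 5, Fbxl5 in 7 and Gm44662 in 6, while Erfe and Gm6649 against day 5 held in all 12.

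Among 8249 tested rows with a gene symbol, leaving out the members and predicted models, those most like Slc30a1 across the 12 libraries were Utp18 (Pearson r of log2 CPM 0.96), Slc22a15 (0.94) and Aldh5a1 (0.94, opposite 4932702P03Rik and 9330162012Rik). Those most like Gm10252 were Asic1 (0.95), Apol7d (0.95, opposite Fn1) and Tlcd1 (0.93, opposite Rpl23a and 2 small nucleolar RNA genes). Those most like Slc40a1 were Dnm3os (0.89), Ggps1 (0.86, opposite Arid4b) and Comtd1 (0.86, opposite A430057M04Rik). These are the highest values of many, over libraries that share groups and composition, and carry no test.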

How the data were processed

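RNA sequencing counts of nasal tissue were taken from 12 libraries, 4 each for vehicle, KDP20 day 5 and KDP20 day 10, grouped by their titles. The authors deposited raw counts per gene row. Per the submitters' processing notes, reads were handled with FastQC, Trim Galore, STAR on mm10 and HTSeq; which versions, annotation, counting mode and strand setting they used is not given in the sources used here. A SMARTER mRNA-Seq kit and total RNA are named in the labels. Depth was 1658420 to 3227138 counts, which limits rows of few counts most.

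The 7 members and the gene lists (5 pathway lists and 7 marker lists) were chosen with earlier results of these data known. Rows were placed in GENCODE M21, where 55227 of 55487 identifiers were found. After filterByExpr and TMM scaling, all 12 libraries entered 1 quasi-likelihood model by group (edgeR 4.0.16, R 4.3.3). Its F test was adjusted by Benjamini-Hochberg over 13181 rows, and 0.05 was the threshold. CPM are of the TMM-scaled library size, summed over the tested rows (98.3% of counts). The script was tested on simulated data. Own-row shares were compared by exact permutation over 4 against 4 libraries (scipy 1.17.1, Python 3.11.15), and correlations by 100000 permutations. Motifs were searched in the RefSeq promoter table.

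Named genes were all members, every called row of each pathway list (own and opposite rows) with the 2 of highest mean CPM, and the 3 rows most like Slc30a1, Gm10252 and Slc40a1. The alternatives were scaling by DESeq2 1.42.0 or by upper quartile, testing with DESeq2 or limma-voom (limma 3.58.1), no filter or 10 CPM in 4 libraries, fitting only the 8 libraries of a comparison, the replicate number as a block, the CT010467.2 share as a covariate or that row left out, GC correction, summed rows, a log2 ratio in place of the share, unscaled CPM or group means removed in the correlations, and each library left out. Leaving out day 10 replicates 2, 3 and 5 together was added after seeing the data.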

Additional observations from a re-analysis of the deposited data

Results flagged for a closer look

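Slc40a1 measured 8.88 CPM in day 5 replicate 7, far above the other 3 libraries of that group, with a gap to the next library that was 0.940 of the group's range, above Dixon's critical value for 4 samples. Ftl1 measured 4.20 CPM in the same library, far below the other 3, with a gap of 0.916 of the range. With 21 groups of 4 examined, about 1 in 20 stands out this far by chance.

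The levels in the KDP20 groups at day 5 and day 10 differed for 2 members, by the direct test of day 10 against day 5. As vehicle was labelled day 10 alone, this test cannot tell whether the effect of KDP20 differed between the days. Slc39a14 gave a log2 fold change of 2.13 (edgeR adjusted p 0.0346), with day 5 lowest of the 3 groups, and Gm10252 gave -0.50 (edgeR adjusted p 0.0212), with day 5 highest.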

How the results depend on the processing

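Under both other scalings, both filters where the row was tested, limma-voom and the fit without the row CT010467.2, the calls of Slc30a1, 1700034H15Rik, Gm10252 and Slc39a14 held. Few counts limit Slc39a14 and Slc40a1, and DESeq2 gave Slc39a14 no adjusted p at day 10 against day 5. For day 10 against vehicle, edgeR called 423 rows with the 8 libraries alone, 366 with GC correction, 0 with the CT010467.2 covariate (500 at an unadjusted p under 0.05) and 0 without day 10 replicates 2, 3 and 5 (912); for day 5 against vehicle it called 278 with no filter, 135 with the strict filter, 656 with the 8 libraries, 370 with the covariate and 589 without those 3 libraries, and DESeq2 called 511 and limma-voom 284; for day 10 against day 5 it called 2 with the covariate and 0 without the 3 libraries (1142 at an unadjusted p under 0.05). Leaving out each library gave 95 to 2684, 5 to 569 and 623 to 2689 rows, and 0 to 2, 0 to 1 and 0 to 3 members. Without day 10 replicate 1 the members called at day 10 against day 5 were Slc30a1, 1700034H15Rik and Gm10252. Members called at day 10 against vehicle were 0 with the covariate or without the 3 libraries and 1 with rows summed, where the locus counts once. At day 5 they were 0 with GC correction, and at day 10 against day 5 they were 1 with the strict filter, with DESeq2 and with the 8 libraries, and 0 with the covariate or without the 3 libraries. The cause of these changes was not tested.

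Same-numbered libraries showed no shared deviation (r -0.09 to 0.12, at most 2 pairs a comparison), so the numbers were not taken to pair the samples. With the replicate number as a block, edgeR called 1701 rows at day 10 against vehicle, 33 at day 5 and 958 between the days, and 1 member between the days, since Slc39a14 gave an adjusted p of 0.179; the calls of Psmc3, Gm44662, Fbxl5 and Slc48a1 were lost too. Under the block, Gm10252 at day 10 against vehicle was -0.0538, Fth1 was 0.0226 at day 5 and -0.18 between the days, and Slc40a1 was 0.00321 between the days.

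Signs turned elsewhere for differences that were not called, apart from 1700034H15Rik and Gm6649 at day 10 against vehicle. With the covariate, day 10 against vehicle was -0.0235 for 1700034H15Rik, -0.43 for Ftl1 and 0.28 for Fth1, Ftl1 at day 5 was -0.00877, and day 10 against day 5 was -0.0231 for Slc30a1, -0.28 for 1700034H15Rik and -0.42 for Ftl1. Without the 3 libraries, Gm6649 at day 10 against vehicle was 0.0868, and day 10 against day 5 was -0.0181 for Slc30a1, -0.12 for 1700034H15Rik, 0.0334 for Slc40a1 and -0.11 for Ftl1. With GC correction, Gm10252 was -0.17 at day 10 against vehicle and Ftl1 -0.0948 between the days. With rows summed, the Ftl1 locus was -0.49 between the days, as Gm10252. Fth1 between the days was -0.00433 with upper-quartile scaling and -0.0550 with limma-voom. Leaving out each library gave Fth1 -0.34 to 0.14, -0.36 to 0.0767 and -0.14 to 0.27 at day 10 and day 5 against vehicle and between the days, Ftl1 -0.0705 to 0.45 at day 10 against vehicle and -0.23 to 0.30 between the days, and Slc39a14 -0.0816 to 0.32 and Gm10252 -0.0280 to 0.19 at day 10 against vehicle. The own-row share difference ran from -0.269 to 2.54 points for Slc30a1 at day 5 and from -0.0373 to 0.0749 for Ftl1 at day 10 against vehicle. The correlation of Ftl1 with Gm10252 was -0.0631 on unscaled CPM, and that of Slc30a1 with 1700034H15Rik was 0.69 over the 9 libraries left.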
